A study of Homo sapiens with 27 samples.

Results

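MMP2sh2 (MMP2KD_26 in the sample names) is a U2OS human osteosarcoma line that stably carries a pLKO.1 lentiviral vector with a short hairpin RNA against MMP2. Its passage from sparse growth to confluence was described with RNA-seq of 3 Confluent libraries (day 0) against 3 Proliferating libraries (day −2), 6 of the 27 libraries in the study. They were chosen by line and day from the sample labels, with no measured value used, and no library of another line entered that fit. The study also holds 3 libraries per day of a control line with the pLKO.1 vector and no hairpin (WT in the sample names) and of a second hairpin line, MMP2sh1 (MMP2KD_23), and 3 OverConfluent libraries (day +2) of each line. It asked which genes depend on MMP-2 as the cells expand. All 3 lines carry the vector, and each hairpin is represented by 1 stable line, so a property of the line and an effect of its hairpin cannot be told apart. Cells grew in DMEM with fetal bovine serum, and at day −2 they were freshly plated and sparse, so time in culture and cell density changed together and cannot be told apart either.

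Cells that run out of free surface spread less, pull less on the substrate and form more contacts with their neighbours. Tension on actin is read by the SRF/MRTF transcription factors and by YAP and TAZ with their TEAD partners, whose target genes code for actin-binding, adhesion and matrix proteins. Crowded cells in an ageing medium also change growth factor signalling, nutrient uptake and lipid synthesis before the cell cycle stops. MMP-2 is a gelatinase of the extracellular matrix that the study follows as a nuclear protease of histone H3.

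The 6 libraries held 36286940 to 52076004 counts on genes. Reads outside any gene made up 5.69% to 7.11% of each library at day −2 and 7.79% to 8.01% at day 0, and reads that fell on more than 1 gene 7.52% to 7.83% and 7.30% to 7.41%, so both shares moved with the day without overlap. Their part in the gene results was not tested. Osteoblast-lineage markers were mixed: RUNX2, the lineage's master regulator, held 32.2 to 34.0 CPM (library-scaled counts, CPM by the TMM method) at day −2 and 43.1 to 47.1 CPM at day 0. ALPL, bone alkaline phosphatase, held 2.52 to 3.19 CPM and 0.383 to 1.86 CPM (log2 fold change −1.60, adjusted p = 0.00164), and MSX2 fell too (−0.35, adjusted p = 0.032). IBSP had no read and SP7 had at most 6 reads in any library. The 7 blood markers summed to 0.904 to 2.08 CPM at day −2 and 1.18 to 1.67 CPM at day 0, and 3 of them, CD3E and HBB included, were at 0 in all 6 libraries. In bulk RNA a smaller share of cells expressing a gene and less of its RNA per cell cannot be told apart.

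MMP2, the targeted gene (GRCh37 chr16:55423612-55540603, plus strand), stood at 132, 135 and 149.8 CPM at day −2 and 148, 154 and 154 CPM at day 0. The groups overlapped, and the log2 fold change of day 0 over day −2 was 0.13 ± 0.055 (SE), adjusted p = 0.0745 (quasi-likelihood test of edgeR, adjusted over all genes by the Benjamini-Hochberg method, as for every adjusted p). Without the third Proliferating library the change was 0.19 with an adjusted p of 0.0033, and with an offset for GC content (described with the calls by base composition) it was 0.25 with an adjusted p of 4.6e-05, so the call depended on the library set and on that offset. On the scale of a joint fit with the control line, MMP2 stood at 133, 137 and 151 CPM at day −2 and 151, 157 and 157 CPM at day 0 in MMP2sh2, against 218, 222.6 and 243 CPM and 313, 320.5 and 326 CPM in the control line, so the knockdown was visible at both days. Over the same 2 days MMP2 rose by 0.49 in the control line and by 0.56 in MMP2sh1 on the log2 scale. The change in MMP2sh2 was smaller than in the control line (difference of log2 fold changes −0.35 ± 0.072 (SE), adjusted p = 0.00319), and against MMP2sh1 the difference was −0.43 ± 0.11 (SE), adjusted p = 0.0829. That last difference passed with the replicate number as a block (−0.44, adjusted p = 0.00555), with no filter on low counts (−0.44, adjusted p = 0.000269) and without the third Proliferating library of MMP2sh1 (−0.54, adjusted p = 0.00535). In a joint fit with MMP2sh1 the levels were 132, 136 and 152 CPM at day −2 and 149, 154 and 156 CPM at day 0 in MMP2sh2, against 33.1, 38.6 and 45.7 CPM and 52.7, 56.2 and 64.7 CPM in MMP2sh1. CTSB, which codes for the lysosomal protease cathepsin B that the study follows as a further histone H3 protease, stood at 996, 1022 and 1123 CPM at day −2 and 870.4, 911 and 869 CPM at day 0 and fell without overlap (log2 fold change −0.25 ± 0.048 (SE), adjusted p = 0.000331). In the control line CTSB rose by 0.16, and the difference between the lines was −0.40 ± 0.061 (SE), adjusted p = 7.38e-05. Against MMP2sh1, where CTSB also fell (−0.30), the difference was 0.05 ± 0.079 (SE), adjusted p = 0.929.

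Of 18613 genes tested, 5645 (30.3%) passed an adjusted p of 0.05. The 2594 that rose were 13.9% and the 3051 that fell 16.4% of the genes tested. Most changes were small, with a median size among called genes of 0.35 on the log2 scale, and 296 genes rose (1.59%) and 279 fell (1.5%) by over 2-fold. The median log2 fold change of all tested genes was 0.025. When the test asked for a change beyond 1.2-fold, 605 genes rose and 636 fell.

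The genes that rose most included makers and parts of the cell coat. HAS2, the synthase of hyaluronan, stood at 1.94, 3.66 and 2.35 CPM at day −2 and 14.6, 12.3 and 14.1 CPM at day 0 (log2 fold change 2.35 ± 0.17 (SE), adjusted p = 2.11e-10). ST8SIA1, the sialyltransferase that makes ganglioside GD3, stood at 4.42, 3.54 and 3.99 CPM at day −2 and 20.6, 18.1 and 18.4 CPM at day 0 (2.26 ± 0.12 (SE), adjusted p = 1.11e-12). LUM, which codes for the collagen-binding proteoglycan lumican, stood at 10.3, 9.30 and 9.59 CPM at day −2 and 23.97, 23.4 and 25.8 CPM at day 0 (1.33 ± 0.096 (SE), adjusted p = 2e-10). The 12 genes with the largest rises were picked among genes without overlap between the days, so absence of overlap is no added result. From day 0 to day +2 HAS2 rose by a further 1.96, while ST8SIA1 fell (−1.21).

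Regulators of metabolism and signalling rose beside them. TXNIP, an inhibitor of thioredoxin and of glucose uptake, stood at 3.06, 2.56 and 2.38 CPM at day −2 and 12.3, 10.8 and 13.7 CPM at day 0 (log2 fold change 2.20 ± 0.15 (SE), adjusted p = 6.54e-11). PDE4B, a phosphodiesterase that breaks down cAMP, stood at 3.51, 5.17 and 3.58 CPM at day −2 and 13.6, 13.8 and 13.2 CPM at day 0 (1.72 ± 0.14 (SE), adjusted p = 2.25e-09). ABCG1, a cholesterol exporter, stood at 6.45, 5.09 and 9.07 CPM at day −2 and 21.1, 22.7 and 21.7 CPM at day 0 (1.68 ± 0.14 (SE), adjusted p = 1.6e-09). The absence of overlap in these 3 also came from how they were picked. A2M, a broad protease inhibitor, rose by 1.32, the repulsive guidance ligand SEMA3A by 1.32, the dopamine receptor gene DRD1 by 1.19, LYPD6, which modulates WNT signalling, by 1.47, and C6orf15 by 1.39. The last of the 12 largest rises, RPL26, is a ribosomal protein gene with many processed copies in the genome, at 11.3, 9.93 and 9.59 CPM at day −2 and 27.8, 30.3 and 29.7 CPM at day 0 (1.51 ± 0.094 (SE), adjusted p = 1.3e-11).

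Matrix proteases and an inflammatory cytokine were among the largest falls. MMP3, stromelysin-1, stood at 49.96, 54.3 and 52.4 CPM at day −2 and 11.2, 14.4 and 13.4 CPM at day 0 (log2 fold change −2.01 ± 0.087 (SE), adjusted p = 2.79e-14). MMP9, the second gelatinase, stood at 15.7, 19.4 and 21.1 CPM at day −2 and 5.10, 6.20 and 4.37 CPM at day 0 (−1.84 ± 0.13 (SE), adjusted p = 2e-10). IL32, a proinflammatory cytokine, stood at 21.8, 23.5 and 24.9 CPM at day −2 and 7.31, 7.82 and 7.36 CPM at day 0 (−1.64 ± 0.10 (SE), adjusted p = 1.3e-11). The 12 largest falls were likewise picked among genes without overlap between the days. ALOXE3, an epidermal lipoxygenase, fell (−1.38). From day 0 to day +2 MMP3 fell further (−5.30), whereas MMP9 and IL32 rose (2.34 and 1.53).

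Others of the 12 largest falls were genes whose reads can come from a near-identical copy, so their counts are uncertain. They included the processed pseudogenes EEF1A1P13 (−1.67) and GAPDHP1 (−1.64), the pseudogene UBE2Q2P6 (−1.49), RP5-857K21.11 (−1.93), RP5-857K21.7 (−1.78), MTRNR2L12 (−1.68), which resembles mitochondrial ribosomal RNA, and the 18S ribosomal RNA entry RNA18S5 (−1.63). RNA18S5, which poly(A) selection should largely remove, stood at 114, 89.3 and 137 CPM at day −2 and 48.2, 31.2 and 30.8 CPM at day 0. The share of mitochondrial counts was 4.33% to 5.39% at day −2 and 4.29% to 4.69% at day 0, overlapping.

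**Figure D1:**
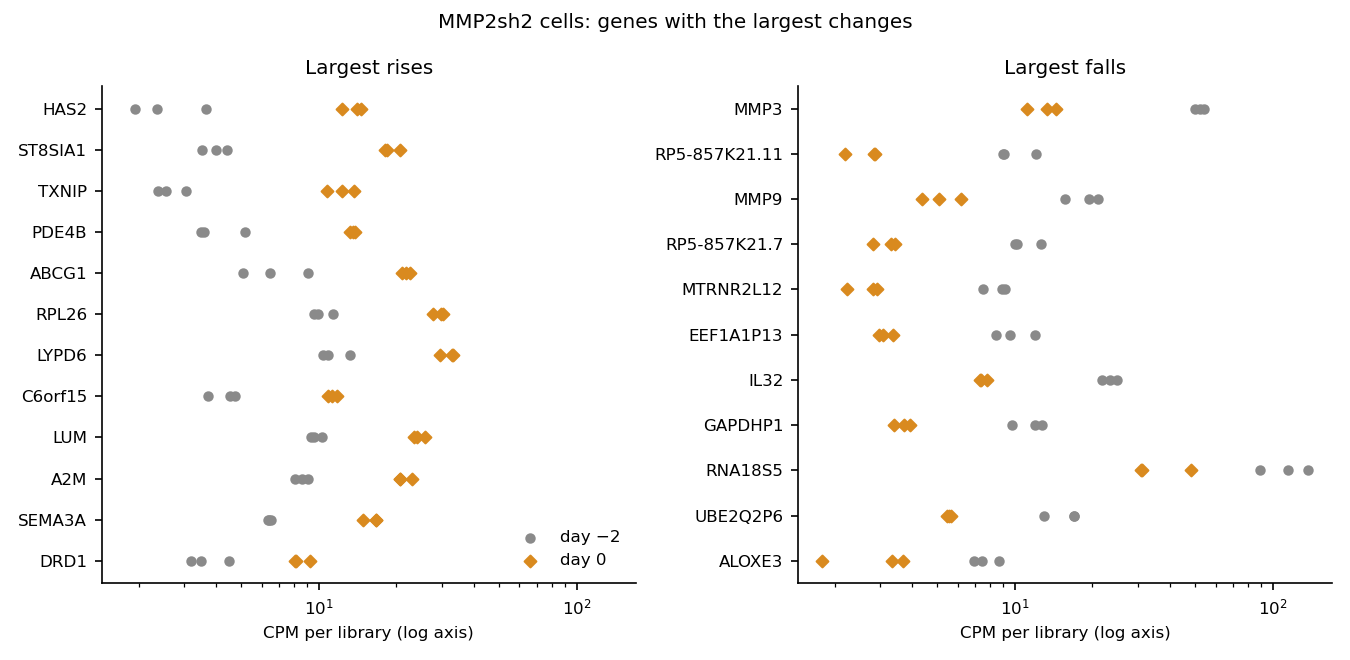
CPM in each of the 6 MMP2sh2 libraries (log axis) for the 12 called genes with the largest rises (left) and 11 of the 12 with the largest falls (right) among genes with a mean of at least 5 CPM and no overlap; grey circles are day −2, orange diamonds day 0. Absence of overlap was part of that choice, and HAS2 spans 1.94 to 3.66 CPM at day −2 and 12.3 to 14.6 CPM at day 0.

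The direction of change went with base composition. Among the 15723 tested genes with an annotated transcript, those in the lowest GC class (24.2% to 43.9%, 5242 genes) had 27.3% of genes rising and 4.64% falling, and those in the highest (53.7% to 92.2%, 5241 genes) had 6.98% rising and 31.9% falling. Median log2 fold changes were 0.14 and −0.13. With a per-library offset for GC content, 2504 genes rose and 2980 fell, and 4153 of the 5645 calls were shared. The gene groups are therefore given with their calls under that offset. Members named from a group were picked for a large called change or after their values were seen. Absence of overlap between the days in them is thus no added result, and its share among all tested genes is not given. Their counts stand beside the shares among all tested genes, 13.9% rising, 16.4% falling and 30.3% called. Shares called were 12.5% for protocadherin beta genes, 16.7% for replication-dependent histone genes and 25% each for p53 targets and interferon-stimulated genes. They were 31.6% for Hippo pathway genes, 33.3% for cadherin genes and 34.8% each for DNA replication and G1 genes. These groups thus lay below or near the share of all genes. Of the named genes, ABCA1, ACSL3, CDH11, CDH4, CDK1, DNAJC3, ERAP2, GAPDH, HIST1H2BK, HIST2H2AC, INSIG2, ITGA1, MCM2, MMP14, NLRC5, NOTCH1 and NUAK2 lost their call with the offset, and MMP2, YAP1, ISG15 and LDHA gained one. The part of GC content in any remaining call was not tested.

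**Figure D2:**
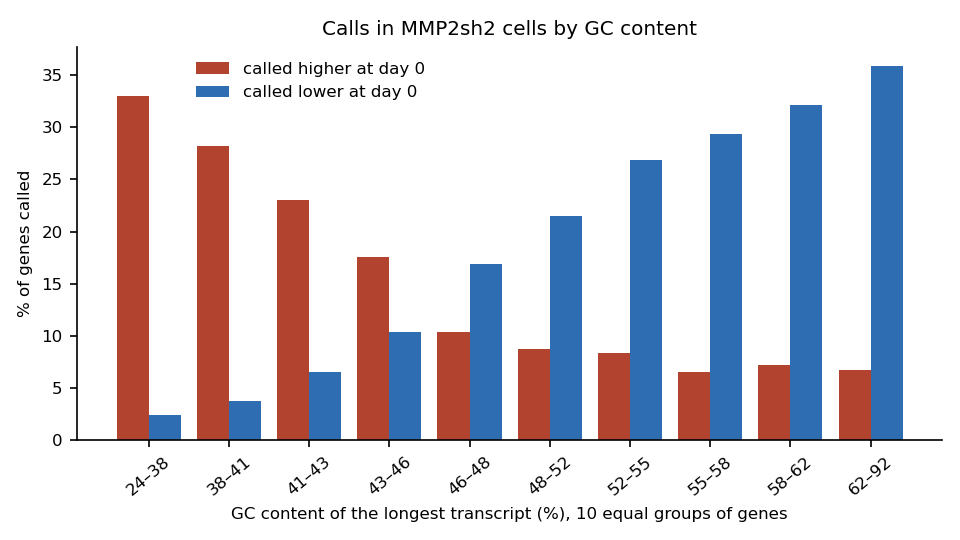
Share of genes called higher (red) and lower (blue) at day 0 in MMP2sh2 cells, in 10 equal groups of genes ordered by the GC content of the longest transcript (x axis, %). The share called higher falls from 33.0% to 6.74% and the share called lower climbs from 2.42% to 35.9% from the lowest to the highest group.

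Most genes of the SRF and actin list fell, with no called member in the other direction. Of the SRF and actin genes, 0 of 21 tested rose and 15 fell, with a median log2 fold change of −0.30, beside 16.4% falling among all genes tested, and 9 fell beyond 1.2-fold. With the GC offset 0 rose and 16 fell, with a median log2 fold change of −0.20. The median GC content of the list was 55.3% against 48.4% for all tested genes. TAGLN, the actin-binding protein transgelin, stood at 72.4, 81.8 and 86.3 CPM at day −2 and 33.6, 33.7 and 35.3 CPM at day 0 (log2 fold change −1.23 ± 0.070 (SE), adjusted p = 2.67e-12). SRF, the transcription factor itself, stood at 72.4, 75.8 and 83.3 CPM at day −2 and 56.1, 56.2 and 57.4 CPM at day 0 (−0.45 ± 0.064 (SE), adjusted p = 7.12e-06). ACTB, β-actin, stood at 6672, 6988 and 7526 CPM at day −2 and 5366, 5602 and 5366 CPM at day 0 (−0.38 ± 0.043 (SE), adjusted p = 4.18e-07). In none of these did the days overlap. Calponin (CNN1, −0.78), the focal adhesion protein zyxin (ZYX, −0.53) and the LIM-domain protein FHL2 (−0.47) fell too. ACTA2, smooth muscle actin, was near the limit of detection (means of 0.844 CPM at day −2 and 0.846 CPM at day 0) and did not pass. In the next 2 days the list split: 6 rose and 9 fell of 21 (median −0.06), with TAGLN (−2.11) and CNN1 (−2.20) falling further and FHL2 (0.86) and ZYX (0.35) rising.

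SRF binds the CArG box, and the list was drawn up from known SRF targets and actin-binding proteins, so boxes in it are no independent evidence. Promoter windows from 250 bases before to 50 bases after the gene start (RefSeq, GRCh38.p14) existed for 18 of the 21 tested members, and 9 of these 18 held a CArG box, against 438 of 27305 genes (1.6%) in all. The box reads the same on both strands, and no other motif was searched. Of the 9 genes with a box 7 fell, of the 9 whose window held none 5 fell, and all 3 without a window fell. All sites of the 9 genes are shown because SRF acts on its targets through this element, and a match in a promoter says only that its letters are there. Each is 30 bases in the direction of the gene, with the box in capitals.
SRF, first box: ctggggctcaCCATATAAGGagcggcctcg
SRF, second box: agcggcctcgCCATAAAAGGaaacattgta
ACTG1: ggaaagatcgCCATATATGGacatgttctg
ACTN1: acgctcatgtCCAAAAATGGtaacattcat
FLNA: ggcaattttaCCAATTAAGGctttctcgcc
TPM4: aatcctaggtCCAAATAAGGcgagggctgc
TGFB1I1: tggaggggagCCAAATTTGGcttgggtgaa
CNN2: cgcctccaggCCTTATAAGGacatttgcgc
FHL1: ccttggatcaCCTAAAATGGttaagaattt
FHL2, upstream start: aatctggagaCCTTAAAAGGcacgtgggag
FHL2, downstream start: gcgtgcatctCCTTATATGGtcaaatgaca
The SRF sites lie at chr6:43171229-43171258 and chr6:43171249-43171278 (plus strand), with boxes starting 30 and 10 bases before the gene start, and those of ACTG1 and FLNA at chr17:81512874-81512903 and chrX:154374709-154374738 (minus strand), each 94 bases before it. The ACTN1 site is at chr14:68977718-68977747 (minus strand), TPM4 at chr19:16067355-16067384, TGFB1I1 at chr16:31473144-31473173, CNN2 at chr19:1026509-1026538 and FHL1 at chrX:136196911-136196940 (plus strand). FHL2 has a box at chr2:105438595-105438624 and one at chr2:105399091-105399120 (minus strand), in the windows of separate starts. SRF, ACTG1, ACTN1, FLNA, TPM4, TGFB1I1 and FHL2 fell, with log2 fold changes from −0.19 (TPM4) to −0.47 (FHL2). CNN2 (−0.11) and FHL1 (0.10) did not pass. No CArG box lay in the windows of the 15 cholesterol synthesis genes that had one.

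Targets of YAP and TEAD, the other readers of tension and crowding, also fell more often than they rose. Of these, 1 of 20 tested rose and 11 fell, with a median log2 fold change of −0.14, and with the GC offset 1 rose and 10 fell. F3, tissue factor, stood at 23.2, 19.95 and 21.2 CPM at day −2 and 12.4, 12.6 and 12.1 CPM at day 0 (log2 fold change −0.79 ± 0.095 (SE), adjusted p = 6.69e-07). AXL, a receptor tyrosine kinase, stood at 793, 809 and 869 CPM at day −2 and 593, 601 and 592 CPM at day 0 (−0.47 ± 0.046 (SE), adjusted p = 3.7e-08). Both were lower in every day 0 library. FJX1 (−0.53) and the kinase gene NUAK2 (−0.52) fell as well. Of the pair of targets most used as reporters, CYR61 passed with −0.13 and overlapping days, and CTGF did not pass (−0.08, adjusted p = 0.292). ANKRD1, a further direct target, rose (0.40). Without the first Confluent library, or without the second Proliferating library, 7 members fell. Among the Hippo pathway genes themselves, 2 rose and 4 fell of 19 tested (median 0.06, and with the GC offset 3 rose and 6 fell, median −0.07): TAZ (WWTR1, 0.47) rose, TEAD4 (−0.41), the YAP cofactor VGLL3 (−0.63), the upstream regulator WWC1 (−0.57) and NF2 (−0.24) fell, and YAP1 (−0.08) did not pass.

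More mitosis genes rose than fell on reaching confluence. Of the mitosis genes, 19 of 46 tested rose and 8 fell, beside 13.9% rising and 16.4% falling among all genes tested. The median log2 fold change was 0.12, and with the GC offset 17 rose and 8 fell (median 0.08). CENPF, a kinetochore protein, stood at 288, 293 and 264 CPM at day −2 and 424, 406 and 435 CPM at day 0 (log2 fold change 0.58 ± 0.050 (SE), adjusted p = 4.21e-09). TOP2A, the mitotic topoisomerase, stood at 668, 663 and 606 CPM at day −2 and 916, 835 and 941 CPM at day 0 (0.47 ± 0.051 (SE), adjusted p = 1.35e-07). Both rose without overlap, as did the kinetochore motor CENPE (0.66), KIF20B (0.49) and NUF2 (0.48). MKI67, the proliferation marker Ki-67, rose by 0.22 and CDK1 by 0.23 (0.05 with the GC offset and no call), whereas the kinase PLK1 fell (−0.33). Of the DNA replication genes, 11 of 46 tested rose and 5 fell, with a median log2 fold change of 0.04, near the 0.025 of all tested genes. With the GC offset 19 rose and 5 fell. The clamp loader subunits RFC1 (0.33) and RFC4 (0.31), POLA1 (0.29) and MCM6 (0.29) rose, POLD2 (−0.31) and MCM2 (−0.15, −0.03 with the offset and no call) fell, and the clamp PCNA (0.05) did not pass.

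Brakes on the cycle were mixed. Of the CDK inhibitor genes, 2 rose and 1 fell of 6 tested (median 0.11), and with the GC offset 4 rose and 1 fell (median 0.22). CDKN1B, p27, stood at 63.4, 62.5 and 56.7 CPM at day −2 and 85.01, 77.8 and 82.3 CPM at day 0 (log2 fold change 0.42 ± 0.063 (SE), adjusted p = 1.13e-05), and CDKN1A, p21, fell (−0.30). CDKN3, a phosphatase of CDK1 and CDK2 kept in that list by its name, rose (0.23). Of the G1 cyclins, E2F and pocket protein genes, 2 rose and 6 fell of 23 tested (median −0.02, and with the GC offset 4 rose and 6 fell). The pocket protein RBL2 (0.30) and E2F5 (0.60), a repressive E2F, rose, whereas CDC25A (−0.32), CDK4 (−0.31) and MYBL2 (−0.30) fell and cyclin D1 (CCND1, 0.03) did not pass. Among p53 targets 1 rose and 5 fell of 24 tested (median −0.01), and with the GC offset 4 rose and 8 fell. The share called, 25%, lay below the 30.3% of all tested genes. PHLDA3 (−0.49), AEN (−0.34), BAX (−0.32) and GADD45A (−0.30) were lower. FOXO and growth-restraint genes rose more often: 8 of 22 tested rose and 2 fell, with a median log2 fold change of 0.17, and with the GC offset 10 rose and 3 fell. Beside TXNIP, the arrestin-domain gene ARRDC3 (1.08), sestrin SESN3 (0.77) and KLF9 (0.64) rose, and PINK1, a mitophagy kinase, fell (−0.67).

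Most genes of cholesterol synthesis and glycolysis fell. Of the cholesterol synthesis genes, 1 of 20 tested rose and 13 fell, with a median log2 fold change of −0.25, and with the GC offset 1 rose and 15 fell. Only 2 of them fell beyond 1.2-fold. HMGCS1, an early synthase of the pathway, stood at 154, 140.5 and 135 CPM at day −2 and 108, 105 and 113 CPM at day 0 (log2 fold change −0.40 ± 0.057 (SE), adjusted p = 8.4e-06). SQLE, squalene epoxidase, stood at 204, 192 and 189 CPM at day −2 and 149, 146 and 154 CPM at day 0 (−0.38 ± 0.051 (SE), adjusted p = 3.33e-06). The days did not overlap in either, and DHCR7 (−0.38) and MVK (−0.38) fell too. Genes of sterol uptake and regulation changed in both directions: 4 rose and 4 fell of 12 tested (median 0.03, and with the GC offset 2 rose and 4 fell, median −0.09). The exporters ABCG1 (1.68) and ABCA1 (0.95, adjusted p = 0.0498, means of 0.785 CPM and 1.54 CPM) and the ubiquitin ligase MYLIP (0.50) rose, as did INSIG2 (0.39), which retains SCAP in the ER. SCAP itself fell (−0.29). With the GC offset ABCA1 (adjusted p = 0.0567) and INSIG2 (adjusted p = 0.0745) did not pass.

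Fatty acid synthesis genes were divided (4 rose and 3 fell of 16 tested, median 0.03, and with the GC offset 5 rose and 4 fell): the elongase ELOVL6 (0.57), FADS1 (0.26) and ACSL3 (0.26) rose, and ELOVL1 (−0.46) and ACLY (−0.25) fell. Of the glycolysis genes, 0 of 21 tested rose and 12 fell, with a median log2 fold change of −0.20, and with the GC offset 4 rose and 12 fell. Only 1 of them fell beyond 1.2-fold. HK1 (−0.38), PFKP (−0.37), the glucose transporter SLC2A1 (−0.35), ALDOA (−0.33), ENO1 (−0.32) and GAPDH (−0.20) fell, and LDHA (−0.06) did not pass. Hypoxia response genes moved in both directions (4 rose and 6 fell of 23 tested, median −0.01, and with the GC offset 2 rose and 9 fell). EPAS1, HIF-2α, stood at 58.4, 61.8 and 62.1 CPM at day −2 and 37.3, 41.7 and 37.5 CPM at day 0 (log2 fold change −0.64 ± 0.068 (SE), adjusted p = 9.92e-08). PFKFB3 fell as well (−0.38), and the demethylase KDM3A rose (0.35). Nuclear respiratory chain genes were split (7 rose and 12 fell of 43 tested, median −0.02, and with the GC offset 7 rose and 12 fell), from UQCRB (0.56), COX8A (0.33) and COX6C (0.29) among the risers to UQCRC1 (−0.28) and NDUFA9 (−0.28) among the fallers, and without the first Confluent library 6 fell, without the third Proliferating library 11 rose and 7 fell. Of the 13 mitochondrially encoded genes 8 fell and 0 rose (median −0.16, and with the GC offset 0 rose and 10 fell), led by MT-ND1 (−0.35) and MT-ND2 (−0.30), but 4 fell without the second Proliferating library and 5 without the first or the third Confluent library.

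**Figure D3:**
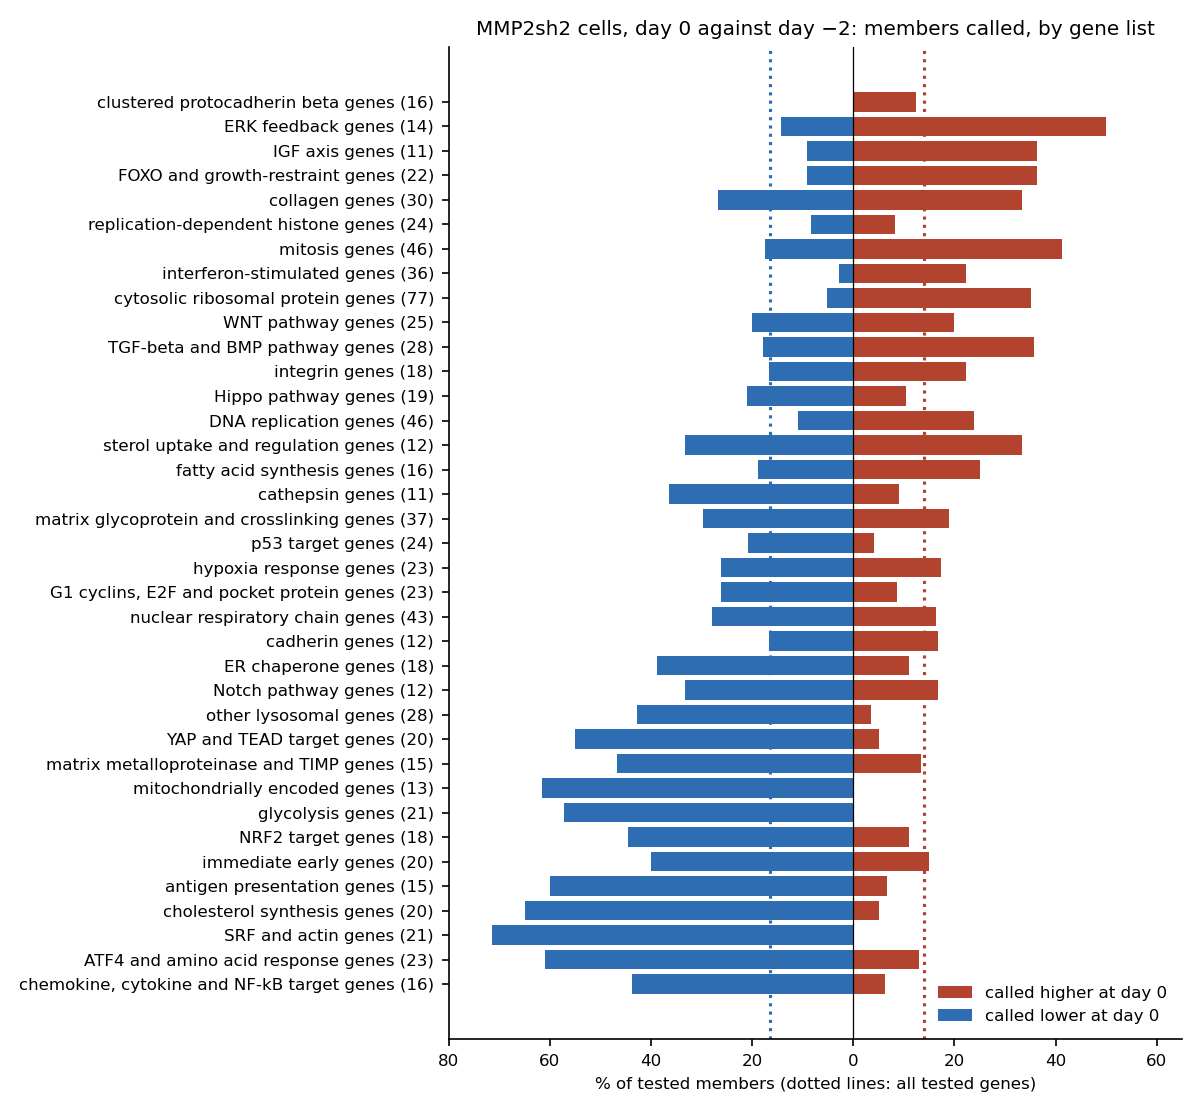
Share of tested members called higher (red, right) and lower (blue, left) at day 0 in MMP2sh2 cells, for the gene lists with at least 10 tested members (number in brackets), ordered by median log2 fold change. Dotted lines mark the shares among all tested genes, 13.9% higher and 16.4% lower; SRF and actin, ATF4, antigen presentation and cholesterol synthesis genes reach far beyond the lower line.

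Most amino acid response genes fell as well. Of the ATF4 and amino acid response genes, 3 of 23 tested rose and 14 fell, with a median log2 fold change of −0.31. With the GC offset 1 rose and 14 fell, with a median of −0.18. Without that offset 4 fell beyond 1.2-fold. SLC7A5, the large neutral amino acid transporter, stood at 605, 649 and 705 CPM at day −2 and 387, 404 and 369 CPM at day 0 (log2 fold change −0.75 ± 0.053 (SE), adjusted p = 1.44e-10). SLC3A2, its partner subunit, stood at 242, 262 and 272 CPM at day −2 and 167, 185 and 172 CPM at day 0 (−0.56 ± 0.054 (SE), adjusted p = 2.37e-08). ATF4, the transcription factor of the response, stood at 469.7, 479.5 and 532 CPM at day −2 and 391, 387 and 375 CPM at day 0 (−0.36 ± 0.050 (SE), adjusted p = 5.49e-06). The days did not overlap in any of the 3, which is no added result given how members were picked. CHAC1, which degrades glutathione (−0.87), SESN2 (−0.49), DDIT3 (−0.45) and asparagine synthetase ASNS (−0.21) fell too. Of the ER chaperone genes 2 rose and 7 fell of 18 tested (median −0.06, and with the GC offset 2 rose and 7 fell), with HSP90B1 (0.30) higher and XBP1 (−0.35), SDF2L1 (−0.38) and HYOU1 (−0.26) lower, and 4 fell without the third Confluent library.

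NRF2 targets fell more often than they rose (2 rose and 8 fell of 18 tested, median −0.20; with the GC offset 1 rose and 9 fell). FTH1, ferritin heavy chain, stood at 958, 929.6 and 1111 CPM at day −2 and 631, 644 and 595 CPM at day 0 (log2 fold change −0.68 ± 0.055 (SE), adjusted p = 1.56e-09). OSGIN1 (−0.62), heme oxygenase HMOX1 (−0.40) and transketolase TKT (−0.37) were lower, and GCLC, of glutathione synthesis, was higher (0.37). Of 3 metallothionein genes tested, MT1X rose (0.88), and MT1E (−0.27) and MT2A (−0.26) fell, and with the GC offset 1 rose and 2 fell. Those genes are near-copies of each other, so the split between them is uncertain.

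Immediate early genes fell more often than they rose, and ERK feedback genes did the reverse. Of the former, 3 of 20 tested rose and 8 fell, with a median log2 fold change of −0.20. With the GC offset 4 rose and 7 fell, with a median of −0.057. EGR1, a zinc finger factor induced by serum, stood at 57.8, 61.5 and 65.5 CPM at day −2 and 34.5, 34.3 and 40.9 CPM at day 0 (log2 fold change −0.75 ± 0.075 (SE), adjusted p = 4.53e-08). JUN (−0.38), FOSL1 (−0.41), KLF10 (−0.46) and NR4A1 (−0.56) fell, NR4A2 rose (1.03), and FOS (0.12) did not pass. Of the ERK feedback genes, 7 of 14 tested rose and 2 fell, with a median log2 fold change of 0.28, and with the GC offset 8 rose and 1 fell. PHLDA1 stood at 16.2, 15.8 and 15.7 CPM at day −2 and 35.5, 32.8 and 38.8 CPM at day 0 (1.17 ± 0.084 (SE), adjusted p = 2e-10). ETV1, an ETS factor, rose by 1.15, the feedback inhibitor SPRY4 by 1.08 and the EGF receptor ligand EREG by 1.19, whereas HBEGF, another ligand of that receptor, fell (−0.88).

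Of the TGF-beta and BMP pathway genes, 10 rose and 5 fell of 28 tested (median 0.07, and with the GC offset 11 rose and 4 fell). The BMP targets ID2 (0.52), ID3 (0.43) and ID4 (0.45) rose with SKIL (0.44), a feedback inhibitor of SMADs. Of the IGF axis genes, 4 rose and 1 fell of 11 tested (median 0.19; with the GC offset 7 rose and 1 fell): the binding proteins IGFBP5 (0.78), IGFBP7 (0.39), IGFBP4 (0.35) and IGFBP6 (0.19) rose, and the receptor IGF2R fell (−0.28). IGFBP5 stood at 54.1, 54.3 and 63.1 CPM at day −2 and 98.1, 100.2 and 95.9 CPM at day 0. WNT pathway genes were balanced (5 rose and 5 fell of 25 tested, median 0.08; with the GC offset 8 rose and 5 fell). RNF43 (1.11), a ligase that removes WNT receptors, and the R-spondin receptors LGR5 (0.70) and LGR4 (0.55) rose, and the ligands WNT5B (−1.06) and WNT7B (−0.71) fell. Of the Notch pathway genes 2 rose and 4 fell of 12 tested (median −0.10, and with the GC offset 2 rose and 2 fell, median −0.002), with the receptors NOTCH2 (−0.27) and NOTCH1 (−0.19, −0.03 with the offset) and the fringe enzyme LFNG (−0.34) lower and MAML2 (0.50) and HES1 (0.24) higher.

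Inflammatory genes fell more often than they rose. Of the chemokine, cytokine and NF-kB target genes, 1 of 16 tested rose and 7 fell, with a median log2 fold change of −0.37, and with the GC offset 1 rose and 7 fell. RELB, an NF-kB subunit, stood at 23.7, 20.6 and 26.99 CPM at day −2 and 12.4, 12.9 and 10.2 CPM at day 0 (log2 fold change −1.003 ± 0.11 (SE), adjusted p = 1.54e-07). CCL2, the monocyte chemokine, stood at 6.24, 5.21 and 3.74 CPM at day −2 and 2.48, 1.75 and 2.81 CPM at day 0 (−1.11 ± 0.22 (SE), adjusted p = 0.000318). Neither overlapped. CXCL12 (−0.99) and the NF-kB inhibitor TNFAIP3 (−0.62) fell, and CCL26 rose (0.70). Interferon-stimulated genes rose more often than they fell (8 of 36 tested rose and 1 fell, with a median log2 fold change of 0.11, and with the GC offset 9 rose and 2 fell), beside 13.9% rising among all genes, but 4 rose without the first Proliferating library and 5 without the second or without the first Confluent library. IFIT1 rose by 0.96, IFI44 by 0.57, BST2 by 0.51 and IFI16 by 0.36, the factor IRF1 fell (−0.49), and ISG15 (0.11) did not pass. Antigen presentation genes mostly fell: 1 of 15 tested rose and 9 fell, with a median log2 fold change of −0.24, and with the GC offset 0 rose and 8 fell. Only 2 of them fell beyond 1.2-fold. HLA-E stood at 105, 109.6 and 122 CPM at day −2 and 85.6, 80.1 and 82.6 CPM at day 0 (−0.44 ± 0.060 (SE), adjusted p = 5.12e-06). Tapasin (TAPBP, −0.48), NLRC5 (−0.35) and TAP1 (−0.32) fell, and the peptidase ERAP2 rose (0.54).

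Matrix genes changed in both directions. Of the collagen genes, 10 of 30 tested rose and 8 fell, with a median log2 fold change of 0.15, and with the GC offset 13 rose and 7 fell. The median ranged from 0.01 without the first Proliferating library to 0.26 without the third Proliferating library, and was 0.05 without the first Confluent library and 0.03 with at least 10 counts in every library or with all 27 libraries in 1 fit. COL3A1, a fibrillar collagen, stood at 26.7, 31.8 and 32.9 CPM at day −2 and 44.4, 50.1 and 53.6 CPM at day 0 (log2 fold change 0.70 ± 0.083 (SE), adjusted p = 6.64e-07). COL1A1, the main collagen of bone, stood at 1294, 1411 and 1433 CPM at day −2 and 1112, 1189 and 1098 CPM at day 0 (−0.28 ± 0.048 (SE), adjusted p = 5.84e-05). The pair moved apart, each without overlap. COL9A2 (0.75), COL7A1 (0.69) and COL11A2 (1.37) rose, and so did COL14A1 (1.58) from a mean of 0.324 CPM to 0.966 CPM. Of the matrix glycoprotein and crosslinking genes, 7 rose and 11 fell of 37 tested (median −0.01, and with the GC offset 10 rose and 8 fell). Beside LUM, fibulin-3 (EFEMP1, 0.83), laminin LAMA4 (0.79) and THBS3 (0.63) rose, SPARC fell slightly (−0.14), and fibronectin (FN1, 0.10) did not pass. DCN passed with means of only 0.0455 CPM and 0.316 CPM.

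Of the matrix metalloproteinase and TIMP genes, 2 rose and 7 fell of 15 tested (median −0.16, and with the GC offset 4 rose and 6 fell). Beside MMP3 and MMP9, the inhibitor TIMP3 stood at 75.7, 77.97 and 81.4 CPM at day −2 and 45.9, 51.3 and 50.3 CPM at day 0 (log2 fold change −0.67 ± 0.064 (SE), adjusted p = 1.93e-08) and MMP14, the membrane-bound activator of proMMP-2, passed with −0.16. That call was lost with the GC offset (−0.03, adjusted p = 0.619), with the replicate block (adjusted p = 0.0585), with all 27 libraries in 1 fit (adjusted p = 0.108), without the second or the third Confluent library and without the second or the third Proliferating library. MMP7 (1.31, means of 1.34 CPM and 3.30 CPM) and MMP13 (2.03, means of 0.420 CPM and 1.76 CPM) rose from low levels. TIMP2, which takes part in that activation, did not pass (−0.10). Of the cathepsin genes, 1 rose and 4 fell of 11 tested, and the same numbers with the GC offset: with CTSB, CTSA (−0.37), CTSC (−0.34) and CTSL (−0.23) fell, CTSV rose (0.38), and CTSD (−0.18) did not pass. Other lysosomal genes fell more often than they rose (1 of 28 tested rose and 12 fell, with a median log2 fold change of −0.14, and with the GC offset 2 rose and 14 fell). Only 1 of them fell beyond 1.2-fold. Progranulin (GRN) stood at 311, 308 and 335 CPM at day −2 and 237, 254 and 235 CPM at day 0 (−0.39 ± 0.051 (SE), adjusted p = 1.83e-06). The calcium channel MCOLN1 (−0.40), NEU1 (−0.28) and LAMP1 (−0.25) fell, whereas TFEB, the master factor of lysosomal genes, rose (0.49, adjusted p = 0.0439).

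Of the cadherin genes, 2 rose and 2 fell of 12 tested (median −0.05, and with the GC offset 1 rose and 2 fell): N-cadherin (CDH2, −0.19) and CDH4 (−0.24) fell, and CDH11 (0.24) and CDH8 (1.42, means of 1.04 CPM and 2.77 CPM) rose. Of the clustered protocadherin beta genes, 2 rose and 0 fell of 16 tested, with the GC offset 3 rose and 0 fell, and 14 of the 16 lay above 0 (median 0.34). Without 1 library the median was 0.18 (without the first Proliferating library) to 0.29, with 0.19 without the third Proliferating library, and 0 rose without the first Confluent library. PCDHB11 stood at 6.10, 7.47 and 7.54 CPM at day −2 and 11.1, 8.38 and 10.2 CPM at day 0 (0.49 ± 0.14 (SE), adjusted p = 0.00696), and these neighbouring genes are similar in sequence. Of the integrin genes, 4 rose and 3 fell of 18 tested (median 0.06; with the GC offset 4 rose and 6 fell), with ITGB2 (0.62), ITGB8 (0.46) and ITGA1 (0.44) higher and ITGA4 (−0.50) and the laminin receptor ITGA3 (−0.45) lower.

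Cytosolic ribosomal protein genes showed small rises: 27 of 77 tested rose and 4 fell, with a median log2 fold change of 0.09, and with the GC offset 39 rose and 2 fell. RPL23A stood at 261, 245 and 257 CPM at day −2 and 350.3, 364 and 347 CPM at day 0 (log2 fold change 0.48 ± 0.048 (SE), adjusted p = 4.9e-08). RPS15A rose by 0.39 and RPS24 by 0.37. These genes have many processed copies, and without the third Proliferating library 50 rose. Of the replication-dependent histone genes, 2 rose and 2 fell of 24 tested (median 0.13, and with the GC offset 3 rose and 0 fell). The linker histone HIST1H1C stood at 215, 219.8 and 254 CPM at day −2 and 311, 336 and 331 CPM at day 0 (0.51 ± 0.057 (SE), adjusted p = 2.29e-07). HIST1H4E also rose (0.73), HIST2H2AC (−0.44) and HIST1H2BK (−0.14) fell, and poly(A) selection captures most of these transcripts poorly.

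Where the response of MMP2sh2 differed from that of the other lines was tested as an interaction of line and day in 12 libraries. Against the control line 750 of 20348 genes (3.69%) differed, with 500 (2.46%) more positive and 250 (1.23%) more negative in MMP2sh2. Some genes fell to confluence in the control line and held their level in MMP2sh2. SERPINB7, a serpin, stood at 15.1, 14.5 and 13.6 CPM at day −2 and 13.8, 11.8 and 14.6 CPM at day 0 in MMP2sh2, against 17.7, 18.8 and 19.4 CPM and 6.49, 7.96 and 6.37 CPM in the control line (difference 1.32 ± 0.15 (SE), adjusted p = 6.44e-07). DIO2, the deiodinase that activates thyroid hormone, stood at 6.53, 5.51 and 4.27 CPM at day −2 and 4.69, 4.92 and 5.42 CPM at day 0 in MMP2sh2, against 8.65, 9.46 and 7.11 CPM and 2.38, 2.93 and 2.35 CPM in the control line (1.60 ± 0.24 (SE), adjusted p = 4.53e-05). In the control line the days did not overlap for either gene, and in MMP2sh2 they did. CCDC147 (1.39 ± 0.22 (SE), adjusted p = 0.000102) and the scavenger receptor gene CD163L1 (1.28 ± 0.24 (SE), adjusted p = 0.00112) had differences of the same sign, and RPL26, which rose in MMP2sh2, had a log2 fold change of −0.02 in the control line (difference 1.55 ± 0.17 (SE), adjusted p = 3.05e-07).

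In the other direction, genes that rose in the control line rose less, did not rise or fell in MMP2sh2. SGK1, a serum- and glucocorticoid-induced kinase, stood at 19.1, 22.9 and 19.8 CPM at day −2 and 18.4, 22.5 and 17.7 CPM at day 0 in MMP2sh2, against 16.1, 16.9 and 16.3 CPM and 35.8, 34.2 and 32.3 CPM in the control line (difference −1.13 ± 0.13 (SE), adjusted p = 4.69e-07). TOX, a nuclear HMG-box protein, stood at 8.93, 7.86 and 8.88 CPM at day −2 and 7.27, 5.11 and 7.005 CPM at day 0 in MMP2sh2, against 4.80, 4.85 and 5.22 CPM and 8.70, 8.45 and 9.26 CPM in the control line (−1.23 ± 0.19 (SE), adjusted p = 0.000102). KIF26B, an atypical kinesin, stood at 3.91, 1.51 and 2.73 CPM at day −2 and 6.89, 5.94 and 6.38 CPM at day 0 in MMP2sh2, against 1.80, 2.42 and 2.21 CPM and 13.3, 13.2 and 10.7 CPM in the control line (−1.29 ± 0.28 (SE), adjusted p = 0.00514). KIF26B thus rose in both lines and SGK1 in the control line. TOX rose in the control line (0.83) and fell in MMP2sh2 (−0.41, adjusted p = 0.0315). Among list members, LAMA4 (−1.06 ± 0.13 (SE), adjusted p = 3.79e-06), IGFBP5 (−0.45 ± 0.080 (SE), adjusted p = 0.000527), SESN3 (−0.57 ± 0.11 (SE), adjusted p = 0.00158), RNF43 (−0.996 ± 0.20 (SE), adjusted p = 0.00281) and COL3A1 (−0.41 ± 0.10 (SE), adjusted p = 0.0139) rose less in MMP2sh2, and COL1A1 (−0.34 ± 0.068 (SE), adjusted p = 0.00221), which fell in MMP2sh2, had a log2 fold change of 0.07 in the control line. MMP3 fell less in MMP2sh2 than in the control line (0.96 ± 0.14 (SE), adjusted p = 6e-05), as did SQLE (0.27 ± 0.065 (SE), adjusted p = 0.0129). Of the 77 ribosomal protein genes 14 were more positive in MMP2sh2 and 1 more negative, with RPL23A at 0.69 ± 0.11 (SE), adjusted p = 7.41e-05. Among the 21 SRF and actin genes, 4 were more negative in MMP2sh2 and 0 more positive, beside 1.23% more negative among all genes tested. RP5-857K21.7 (−1.13 ± 0.27 (SE), adjusted p = 0.0121) and the pseudogene MTATP6P1 (−1.33 ± 0.21 (SE), adjusted p = 0.000114) fell in MMP2sh2 and had log2 fold changes of −0.63 and 0.02 in the control line. For RP5-857K21.7 the difference lost its call without the second Confluent (adjusted p = 0.0767) or the first Proliferating (0.0577) library of the control line. MTATP6P1, a nuclear copy of mitochondrial sequence, stood at 149.6, 196 and 260.5 CPM at day −2 and 87.97, 86.9 and 68.4 CPM at day 0 in MMP2sh2, against 72.5, 106 and 132 CPM and 76.2, 114 and 123 CPM in the control line, so its level also ranged widely within the control line. The share of calls that were more negative moved from 33.3% to 50.2% when at least 10 counts were asked of every library.

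**Figure D4:**
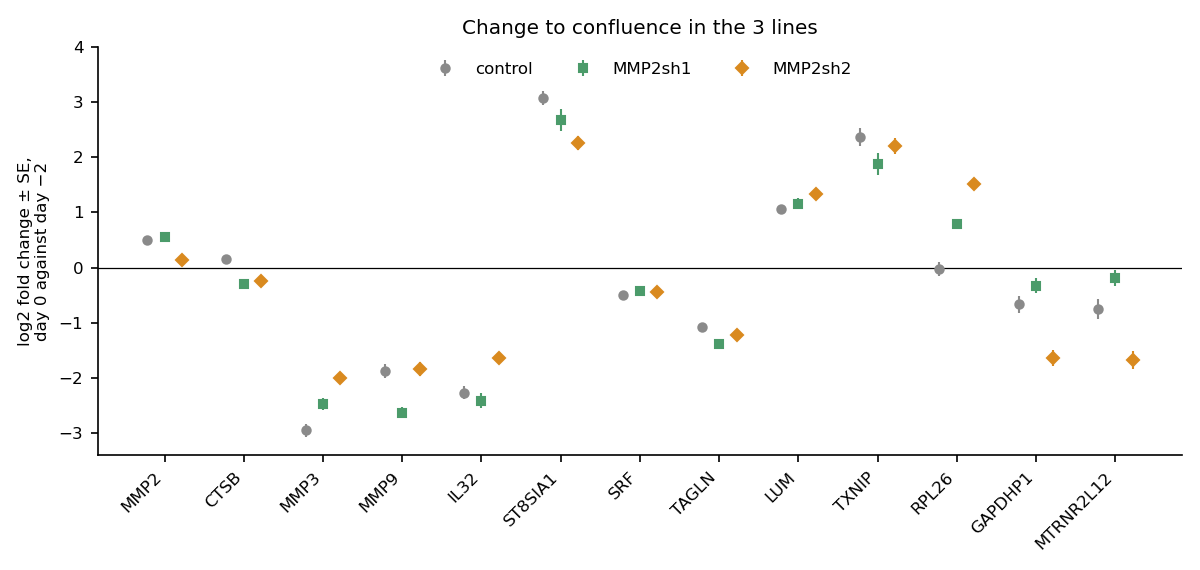
Log2 fold change ± SE of day 0 against day −2 (y axis) of 13 named genes in the control line (grey circles), MMP2sh1 (green squares) and MMP2sh2 (orange diamonds), each fitted on its own 6 libraries. MMP2 rises by 0.49 and 0.56 in the first 2 lines and stands at 0.13 in MMP2sh2, while SRF and TAGLN fall in all 3 lines.

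Against MMP2sh1, the other knockdown line, 92 of 20091 genes (0.458%) differed, 36 more positive (0.179%) and 56 more negative (0.279%) in MMP2sh2. HIST1H1C stood at 216, 222 and 258 CPM at day −2 and 313, 337 and 334 CPM at day 0 in MMP2sh2, against 168, 157 and 159 CPM and 119, 118 and 118 CPM in MMP2sh1 (difference 0.95 ± 0.080 (SE), adjusted p = 7.82e-09). KISS1, the kisspeptin gene, stood at 7.21, 9.99 and 9.74 CPM at day −2 and 8.55, 7.28 and 10.1 CPM at day 0 in MMP2sh2, against 12.2, 13.5 and 12.9 CPM and 6.05, 7.46 and 3.85 CPM in MMP2sh1 (1.09 ± 0.23 (SE), adjusted p = 0.0187). MMP9 stood at 15.8, 19.6 and 21.4 CPM at day −2 and 5.13, 6.23 and 4.41 CPM at day 0 in MMP2sh2, against 38.8, 42.8 and 49.4 CPM and 6.55, 7.29 and 7.45 CPM in MMP2sh1 (0.78 ± 0.17 (SE), adjusted p = 0.0288). HIST1H1C thus rose in one hairpin line and fell in the other, KISS1 fell in MMP2sh1 and its days overlapped in MMP2sh2, and MMP9 fell in both, further in MMP2sh1. SLAMF7, an immune receptor gene, fell less (1.02 ± 0.22 (SE), adjusted p = 0.0222), and the log2 fold change of GLUL, glutamine synthetase, was 0.14 in MMP2sh2 and −0.68 in MMP2sh1 (0.81 ± 0.15 (SE), adjusted p = 0.00785). The calls of MMP9, SLAMF7 and KISS1 were lost without any of several libraries. In the fits that lost them, the difference was 0.65 to 0.82 for MMP9, 0.90 to 1.02 for SLAMF7 and 0.88 to 0.96 for KISS1. MMP9 lost its call without the first or second Confluent or first Proliferating library of MMP2sh2, without any Confluent library or the third Proliferating library of MMP2sh1 (adjusted p up to 0.151). SLAMF7 lost it without the first or second library of either day of MMP2sh2 or the first or the third Confluent library of MMP2sh1 (up to 0.0907), and KISS1 without the third Confluent or first Proliferating library of MMP2sh2 or the third Confluent library of MMP2sh1 (up to 0.0859). The largest negative differences included genes with near-identical copies: EEF1A1P13 (−1.25 ± 0.21 (SE), adjusted p = 0.0021), GAPDHP1 (−1.32 ± 0.20 (SE), adjusted p = 0.000327), RP5-857K21.11 (−1.36 ± 0.23 (SE), adjusted p = 0.00231) and MTRNR2L12 (−1.50 ± 0.21 (SE), adjusted p = 0.00016). The count of this comparison ranged from 45 to 178 when 1 library was left out, with 178 without the third Proliferating library of MMP2sh2.

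More genes were called over the next 2 days. In MMP2sh2 8719 of 19168 genes (45.5%) changed between day 0 and day +2, 4318 higher (22.5%) and 4401 lower (23%). Both steps share the 3 Confluent libraries, so a high or low value in these pushes the steps in opposite directions, and their values are only set side by side. Mitosis genes, with a median of 0.12 in the first step, had −0.31 in the second, when 0 rose and 38 fell of 46. DNA replication genes went from 0.04 to −0.36 (0 rose and 42 fell of 46). Their first median lay near that of all tested genes, which was 0.025 in the first step and 0.012 in the second. Lysosomal genes went from −0.14 to 0.37 (24 rose and 1 fell of 28), antigen presentation genes from −0.24 to 0.54 (13 rose and 1 fell of 15), and ATF4 and amino acid response genes from −0.31 to 0.47 (17 rose and 2 fell of 23). Cathepsin B rose by 0.98 and MMP2 by 0.84.

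Other groups kept the sign of their median. YAP and TEAD targets had −0.14 and then −0.53 (2 rose and 16 fell of 20), cholesterol synthesis genes −0.25 and −0.42 (0 rose and 15 fell of 20), and glycolysis genes −0.20 and −0.37 (2 rose and 16 fell of 21). ERK feedback genes had 0.28 and 1.31 (11 rose and 1 fell of 14), FOXO and growth-restraint genes 0.17 and 0.88 (18 rose and 1 fell of 22), and interferon-stimulated genes 0.11 and 0.56 (25 rose and 2 fell of 36). The protocadherin beta genes, of which 2 were called at confluence, were all called higher over the second step (16 rose and 0 fell of 16, median 1.13).

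**Figure D5:**
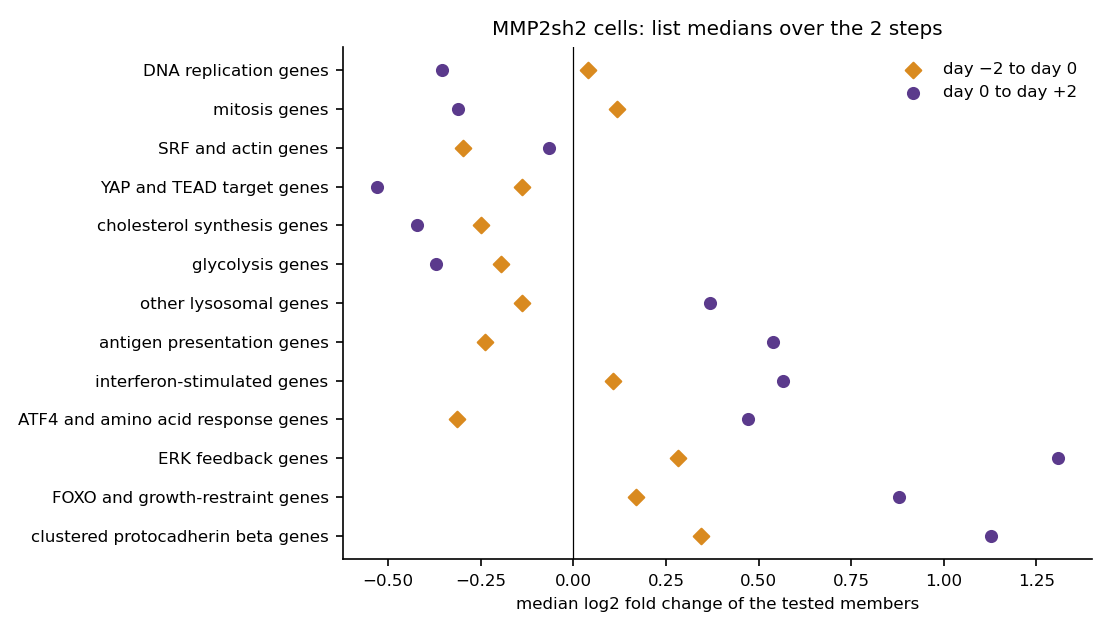
Median log2 fold change of the tested members of 13 gene lists in MMP2sh2 cells (x axis) from day −2 to day 0 (orange diamonds) and from day 0 to day +2 (purple circles). The mitosis median stands above 0 in the first step and below 0 in the second, and lysosomal, antigen presentation and ATF4 medians do the reverse. The DNA replication median goes from 0.04, near the 0.025 of all tested genes, to −0.36.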

How the data were processed

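Total RNA was extracted with TRIzol, poly(A)-selected and made into NEBNext Ultra II libraries, which do not mark strand, and sequenced as read pairs. Per the submitters' processing notes the authors used Trim Galore 0.6.0 for trimming, STAR 2.7.3a for alignment to hg19 and HTSeq 2.0.0 for counting. The deposited files hold raw read counts for 55882 gene symbols and 5 summary lines. The summary lines (16.8% to 18.6% of the 6 libraries) were left out of library sizes and tests. The study's text also names RSEM; the values used here are whole-number counts. Reads of overlapping or antisense genes and of near-identical copies cannot be told apart. The study describes the 3 libraries of a group as independent biological replicates.

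Counts were filtered with filterByExpr (minimum count 10, minimum total 15), scaled by TMM and tested with the quasi-likelihood test of edgeR 4.0.16 (R 4.3.3), adjusted over all tested genes by the Benjamini-Hochberg method. A gene was called at an adjusted p under 0.05. The first fit held the 6 MMP2sh2 libraries, and each interaction fit 12. The script was tested on simulated data. DESeq2 1.42.0, RLE scaling, 2 other filters, a replicate block, all 27 libraries in 1 fit, leaving out each library, a test against a fold of 1.2 and a GC offset were alternatives, the GC offset chosen after seeing the data. GC content came from GENCODE v44lift37 on GRCh37, to which 35772 symbols matched, 1904 of them through an older symbol.

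Named genes were MMP2 and CTSB, the 12 called genes with the largest rise and the 12 with the largest fall (mean of at least 5 CPM, no overlap), up to 5 called members with the largest change and up to 3 defining members of each of 39 lists, and 5 genes in each direction per interaction. Some genes that these rules name are not reported here. The comparison and lists were chosen with earlier results of these data known, and the defining members after their values were seen. Genes named for their CArG box (ACTG1, ACTN1, FLNA, TPM4, TGFB1I1, CNN2 and FHL1), the markers ALPL and MSX2, and list members named for their difference between lines, were also chosen after their values were seen.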

Additional observations from a re-analysis of the deposited data

Results flagged for a closer look

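The responses of the lines differed by the test of the interaction itself for 750 genes between MMP2sh2 and the control line and for 92 genes between MMP2sh2 and MMP2sh1. Against the control line the difference of log2 fold changes was 1.60 for DIO2, 1.55 for RPL26, 1.39 for CCDC147, 1.32 for SERPINB7 and 1.28 for CD163L1. It was −1.13 for SGK1, −1.13 for RP5-857K21.7, −1.23 for TOX, −1.29 for KIF26B and −1.33 for MTATP6P1. For MMP2 it was −0.35 and for CTSB −0.40. Against MMP2sh1 it was 1.09 for KISS1, 1.02 for SLAMF7, 0.95 for HIST1H1C, 0.81 for GLUL and 0.78 for MMP9. It was −1.25 for EEF1A1P13, −1.32 for GAPDHP1, −1.36 for RP5-857K21.11 and −1.50 for MTRNR2L12. All of these genes passed an adjusted p of 0.05 in edgeR's quasi-likelihood test.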

How the results depend on the processing

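The count of 5645 called genes stayed within 1.5 times under RLE scaling (5607), DESeq2 (5365), no filter (5455), at least 10 counts in every library (5617), all 27 libraries (5855), the GC offset (5484) and without each library in turn (4131 to 5247). With at least 10 counts in every library 16381 genes were tested and 162 fell by over 2-fold, against 279 of 18613 in the first fit. Against a fold of 1.2, 1241 genes were called (605 higher and 636 lower, 165 and 174 of them by over 2-fold), and 110 of the named genes lost their call. Of 217 named genes called, 185 were called in all 6 fits without 1 library, and the other 32 included ABCA1, ASNS, CDH11, CDH4, COL14A1, CXCL12, CYR61, DCN, DDIT3, DNAJC3, ERAP2, HES1, HIST1H2BK, HIST1H4E, HIST2H2AC, IGFBP6, ITGA1, KDM3A, LGR5, MAML2, MCM2, MMP14, MT-ND6, NDUFA9, NOTCH1, NR4A2, NUAK2, PCDHB11, PCDHB12, SPARC and TFEB. With the GC offset 17 named genes lost their call and 4 gained one, the median of the Hippo pathway genes became −0.066 and that of the sterol genes −0.087. Medians also moved for the immediate early (−0.20 to −0.057), ATF4 (−0.31 to −0.18), CDK inhibitor (0.11 to 0.22) and Notch genes (−0.10 to −0.0022). The ERK feedback median was 0.15 with DESeq2, 0.17 with no filter and 0.16 with all 27 libraries, against 0.28. That of the matrix metalloproteinase and TIMP genes was −0.31 with DESeq2 and −0.29 with no filter, against −0.16. The IGF axis median was 0.085 without the second Confluent library, against 0.19. ACTA2, near the limit of detection, changed sign with the GC offset (0.0077) and ranged from −0.23 to 0.25 without 1 library, and the Notch median from −0.11 to 0.031.

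Same-numbered Proliferating and Confluent libraries of MMP2sh2 did not deviate together (correlations −0.039 to 0.0042), so the numbers do not pair these libraries. Whether the numbers pair libraries of the control line, of MMP2sh1 or of the OverConfluent day was not tested. With the replicate block 5270 genes were called, 726 against the control line, 134 against MMP2sh1 and 9007 from day 0 to day +2, and ACTA2 moved to 0.036.

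Against the control line, 390 genes were more negative with at least 10 counts in every library. The share more negative was 45.4% with no filter, 39.97% with RLE scaling and 40.2% with DESeq2. Without 1 library 375 to 742 genes were called (210 to 534 more positive, 150 to 351 more negative), with 475 and 397 without Confluent replicates 1 and 3 of MMP2sh2, 492 and 494 without those of the control line, and 375 and 492 without its Proliferating replicates 1 and 2. Against MMP2sh1, DESeq2 called 168 genes (80 and 88) and no filter 187 (66 and 121), and 45 to 178 were called without 1 library (15 to 118 more positive, 28 to 78 more negative). Without 1 library of MMP2sh1 at day −2 the count was 79, 85 or 124. The difference of CTSB from MMP2sh1 ranged from −0.00092 to 0.13. From day 0 to day +2 the count was 7770 to 9007 throughout. The cause of these changes was not tested. ACTA2 and DCN were measured at a depth of under 1 CPM.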

Other observations

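Longer transcripts rose more often. Genes were grouped by length alone, so this trend and the trend with GC content were not told apart. Among tested genes with an annotated transcript, 9.40% rose and 19.4% fell where the longest transcript had up to 2673 bases (5242 genes), and 21.5% rose and 16.3% fell where it had 4791 bases or more (5241 genes). The osteoblast-lineage markers summed to 2612 to 2790 CPM at day −2 and 2331 to 2434 CPM at day 0, without overlap, although RUNX2 itself was higher at day 0. The mesenchymal markers summed to 1090 to 1181 CPM and 1031 to 1042 CPM, the epithelial markers to 33.8 to 37.8 CPM and 31.4 to 34.6 CPM, and the adipocyte markers stayed under 0.378 CPM.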
